A study of Mus musculus with 6 samples.

Results

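EphB receptors and ephrin-B ligands were examined in the ventral midbrain of the mouse embryo, in floor plate and in its lateral neighbour. The members were the receptor genes Ephb1, Ephb2, Ephb3, Ephb4 and Ephb6 and the ligand genes Efnb1, Efnb2 and Efnb3, and all probe sets annotated to exactly 1 of these symbols were taken. This gave 12 of the 45037 probe sets tested, 4 for receptors and 8 for ligands, and covered 7 of the 8 genes. No probe set was named singly for Ephb2, which is not analysed here. Ephb1, Ephb3, Ephb4, Ephb6 and Efnb3 had 1 probe set each, Efnb1 had 3 and Efnb2 had 4.

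The samples were midbrain floor plate, the strip of cells along the ventral midline, and the ventral lateral region next to it, dissected without overlap from C57BL/6 embryos of mixed sex at embryonic day 10.5. There were 3 samples per region, and each was a pool of 6 embryos. No allele or treatment is named for either group. Each sample's RNA (5 ng of total RNA) was amplified and hybridised to an Affymetrix mouse array, so the 6 arrays stand for 6 pools and not for single embryos, and their number limits the precision.

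Eph receptors are receptor tyrosine kinases whose ligands, the ephrins, sit in the membrane of neighbouring cells. Ephrin-B proteins span the membrane and signal into their own cell (reverse signalling), while the receptor signals into the other (forward signalling), and the contact often ends in repulsion. In the developing nervous system the pair sharpens boundaries between cell groups and steers axons, among them axons that meet the ventral midline. In blood vessels ephrin-B2 marks arteries and EphB4 marks veins.

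The deposited values are centred, so that the median of each probe set over the 6 arrays is 0. A value therefore says how the arrays differ and not how strongly a gene is expressed. The genes cannot be ranked by level, and no signal over background can be given. The 2 middle values of each probe set are mirror images around 0, whichever samples hold them. Where all 3 samples of one region lie above all 3 of the other, they are the innermost values of the 2 regions. Neither log base nor direction is given in the sources used here. A log2 scale was assumed, on which a higher value means more RNA.

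The region labels were set beside marker genes, whose lists were chosen with earlier results of these data known. Of 12 probe sets for 7 floor plate markers, 9 were higher in floor plate and none lower. Neither probe set of Shh was among them (difference 1.76, adjusted p = 0.0734, and 0.16, adjusted p = 0.56), while each of the other 6 genes had at least 1. All 10 probe sets of ventral lateral progenitor and GABAergic neuron markers were lower. The floor plate list averaged 0.91 to 1.08 on the floor plate arrays and -2.18 to -0.90 on the ventral lateral arrays, where replicate 2 held the highest value. On the first principal component (57.0% of the variance) the regions lay apart.

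For 2 of the 3 members with a probe set that differed between the regions, a promoter window is shown, since the arrays themselves give no sequence. RefSeq windows of assembly GRCm38.p6, running from 250 bases before to 50 bases after a gene's start, were found for 7 of the 8 members; Efnb3 had none. Each is written 5′ to 3′ on the strand of its gene. The capitals mark matches to 4 short motifs searched on both strands, which were the forkhead core TGTTTAC, the Gli site GACCACCCA, the E-box CANNTG and the GC box GGGCGG. The Ephb1 window lies at chr9:102354644-102354943 on the minus strand and the Efnb2 window at chr8:8661193-8661492 on the minus strand.
Ephb1: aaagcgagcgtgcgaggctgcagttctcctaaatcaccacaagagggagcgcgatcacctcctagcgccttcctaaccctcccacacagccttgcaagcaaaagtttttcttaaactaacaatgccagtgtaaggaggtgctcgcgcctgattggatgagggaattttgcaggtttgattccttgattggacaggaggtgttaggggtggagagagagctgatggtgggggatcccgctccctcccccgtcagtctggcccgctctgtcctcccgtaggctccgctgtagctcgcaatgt
Efnb2: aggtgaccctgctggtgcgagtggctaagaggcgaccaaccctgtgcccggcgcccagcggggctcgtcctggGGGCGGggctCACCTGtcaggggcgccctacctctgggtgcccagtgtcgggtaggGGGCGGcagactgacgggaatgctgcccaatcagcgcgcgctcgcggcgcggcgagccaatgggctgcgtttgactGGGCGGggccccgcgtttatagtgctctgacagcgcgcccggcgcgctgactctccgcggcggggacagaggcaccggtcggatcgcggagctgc
The Efnb2 window held 1 E-box and 3 GC boxes, which did not overlap, and the Ephb1 window held no match to any of the 4. An E-box was present in 72.3% of all 32851 windows of this length and a GC box in 35.7%. The forkhead core was present in 3.65% of all windows and the Gli site in 0.253%, and neither was present in the windows of the 7 members. The GC content was 72.3% for Efnb2 and 55.7% for Ephb1, beside a median of 52.7% over all windows. The Efnb2 window held 35 CpG dinucleotides and the Ephb1 window 14, beside a median of 7. These matches describe the letters of the windows and say nothing about binding.

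The comparison asked which of these genes set the midline strip apart from its lateral neighbour. The receptor gene Ephb1 was lower in floor plate, and the ligand gene Efnb3 was higher. Efnb2 was higher on 1 of its 4 probe sets and missed the threshold on their mean (limma over all genes, adjusted p = 0.0753). Of the 12 probe sets, 2 were higher and 1 was lower in limma with Benjamini-Hochberg adjustment over all 45037 probe sets (adjusted p under 0.05). Over all probe sets, 4.71% passed this test, 2.70% as higher and 2.01% as lower. The regions did not overlap, each of the 3 values of one lying above or below each of the other, for 7 of the 12 probe sets and for 22.4% of all probe sets. The median difference of the 12 was 0.0065 on the log2 scale, against -0.0040 over all probe sets (floor plate minus ventral lateral, as for every difference below). The median size of the difference without its sign was 0.27 for the 12 and 0.13 over all.

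**Figure D1:**
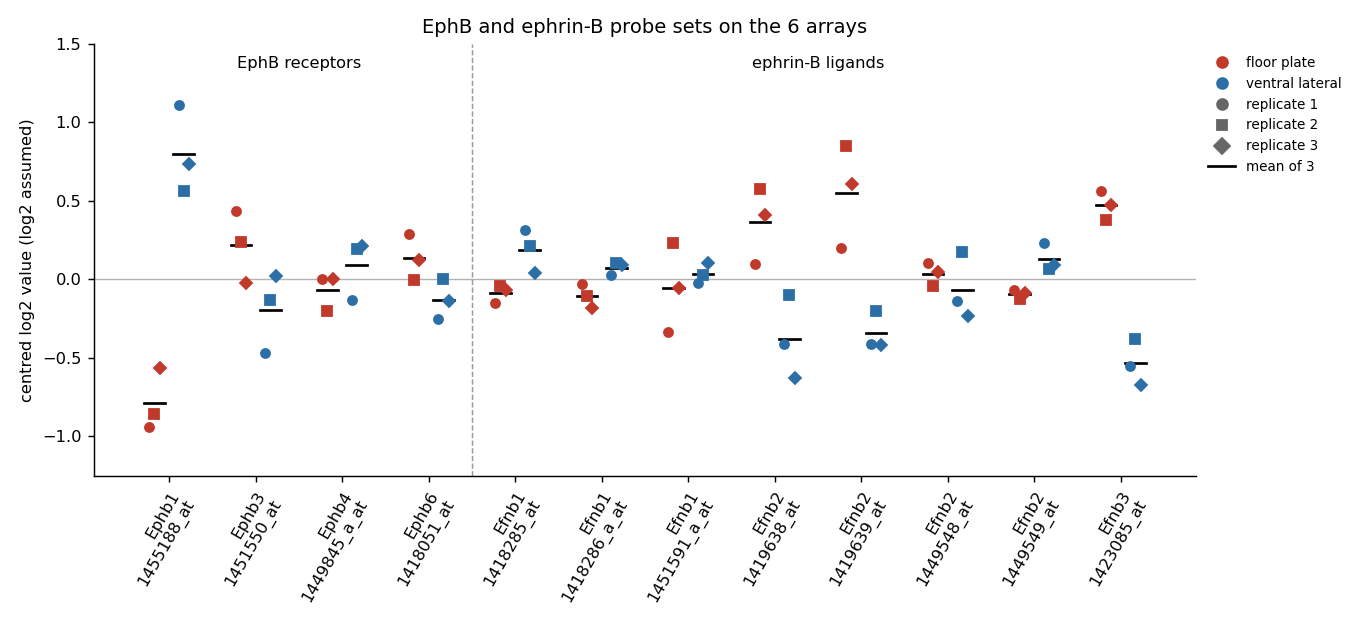
Centred log2 value (vertical axis, log2 assumed) of each of the 12 probe sets on the 6 arrays, receptors left of the dashed line and ligands right of it. Points are samples, floor plate left of ventral lateral within each probe set, and bars are means of 3. The regions are furthest apart for Ephb1, where floor plate lies between -0.94 and -0.56 and ventral lateral between 0.56 and 1.11.

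Ephb1 encodes a receptor that binds the ephrin-B ligands and is known in the mouse for turning axons away from the midline at the optic chiasm. Its probe set 1455188_at had centred log2 values of -0.94, -0.86 and -0.56 in floor plate samples, against 1.11, 0.56 and 0.73 in ventral lateral samples. The groups did not overlap, and the first ventral lateral sample stood highest. Ephb1 averaged -0.79 ± 0.20 (SD, n = 3) in floor plate, against 0.80 ± 0.28 (SD, n = 3) in the ventral lateral region. It fell by 1.59 on the log2 scale (SE 0.17, 95% interval -1.97 to -1.20), which is 3.01-fold lower in floor plate (limma, adjusted p = 0.00211). By p-value the probe set of Ephb1 ranked 358 of 45037, the highest rank among the members. In tissue pieces such as these, fewer cells that carry a transcript and less of it per cell cannot be told apart.

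Some marker genes of cell populations were lower in floor plate, as Ephb1 was. Of 18 probe sets for 8 genes of postmitotic neurons, 4 were lower in floor plate (Stmn2, Stmn3 and Nefl, which encode cytoskeletal proteins of neurons) and none higher. No probe set of Tubb3, Dcx, Elavl3, Elavl4 or Nefm passed. The median difference of the 18 was -0.44, while the probe sets of Elavl4 lay between 0.02 and 0.05. The postmitotic neuron list averaged -0.33 to -0.08 on floor plate arrays and 0.02 to 0.41 on ventral lateral arrays, with ventral lateral replicate 1 highest, as for Ephb1. The lowest ventral lateral array was replicate 3 for that list and replicate 2 for Ephb1. The list of ventral lateral progenitors and GABAergic neurons averaged -2.01 to -1.49 on floor plate arrays and at least 1.39 on each ventral lateral array, again with ventral lateral replicate 1 highest. For the alar midbrain list (Pax7, Pax3 and Zic1, transcription factors of the dorsal midbrain) 6 of 7 probe sets were lower, with means between -1.06 and -0.86 on floor plate arrays, against 0.83 and 1.03 on ventral lateral arrays, where replicate 1 was lowest, unlike for Ephb1. Of 16 probe sets for 6 genes of neural progenitors, 3 were lower, all of Pax6, and none higher. This list averaged -0.12 to -0.06 on floor plate arrays and 0.07 to 0.23 on ventral lateral arrays, where replicate 1 was highest. The median difference of the 16 probe sets was 0.011, while the difference of Pax6 reached -3.92. No probe set of Sox2, Nes, Vim, Hes5 or Notch1 passed. The part of these populations in the difference of Ephb1 was not tested.

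The other receptors had no probe set past the threshold. Ephb3, a receptor with an active kinase, had centred log2 values of 0.44, 0.24 and -0.02 in floor plate samples, against -0.47, -0.13 and 0.02 in ventral lateral samples. The groups overlapped through replicate 3 of each region, and the difference was 0.41 (95% interval 0.02 to 0.80, limma, adjusted p = 0.274). Ephb6, whose kinase domain lacks catalytic activity, had values of 0.29, -0.0031 and 0.13 in floor plate samples, against -0.25, 0.0031 and -0.14 in ventral lateral samples. Here replicate 2 of both regions held the 2 middle values, which centring places around 0. The difference of Ephb6 was 0.27 (95% interval -0.0061 to 0.54, adjusted p = 0.315). Ephb4, the receptor of veins, had values of 0.0005, -0.20 and -0.0005 in floor plate samples, against -0.13, 0.19 and 0.21 in ventral lateral samples. Replicate 1 of the ventral lateral region lay among the floor plate samples, and the difference of Ephb4 was -0.16 (95% interval -0.45 to 0.14, adjusted p = 0.629). The intervals of these 3 receptors reach from -0.45 to 0.80, and Ephb1 with an interval below -1.20 lay outside all of them.

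Efnb3 encodes ephrin-B3, which is known in the mouse as a midline barrier in the spinal cord that keeps axons of the corticospinal tract from crossing back. Its probe set 1423085_at had centred log2 values of 0.57, 0.38 and 0.47 in floor plate samples, against -0.55, -0.38 and -0.67 in ventral lateral samples. All 3 floor plate samples lay above all ventral lateral samples, with little spread in either region. Efnb3 averaged 0.47 ± 0.09 (SD, n = 3) in floor plate, against -0.53 ± 0.15 (SD, n = 3) in the ventral lateral region. The difference was 1.01 (SE 0.11, 95% interval 0.75 to 1.27), which is 2.01-fold higher in floor plate (limma, adjusted p = 0.00277). Efnb3 ranked 421 of 45037 by p-value.

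Efnb2 encodes ephrin-B2, the ligand of arteries and of several boundaries in the embryonic brain, and its 4 probe sets are annotated with the same accession, U30244. Probe set 1419639_at of Efnb2 had centred log2 values of 0.20, 0.85 and 0.61 in floor plate samples, against -0.41, -0.20 and -0.42 in ventral lateral samples. The groups did not overlap, but floor plate replicate 1 stood well below the other two. The difference was 0.90 (SE 0.17, 95% interval 0.50 to 1.29), or 1.86-fold higher in floor plate (limma, adjusted p = 0.0261). The adjusted p missed the threshold without floor plate replicate 2 (0.057) or 3 (0.0875) and without ventral lateral replicate 1 (0.1) or 3 (0.0924), with differences of 0.75 to 0.87. Probe set 1419638_at of Efnb2 had values of 0.10, 0.58 and 0.41 in floor plate samples, against -0.41, -0.10 and -0.63 in ventral lateral samples. Its samples stood in a like order, the difference was 0.74 (95% interval 0.34 to 1.15), and it missed the threshold (adjusted p = 0.0584). It passed without ventral lateral replicate 2, at 0.88 (adjusted p = 0.0409).

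The remaining probe sets of Efnb2 gave smaller differences. Probe set 1449548_at of Efnb2 had values of 0.11, -0.04 and 0.04 in floor plate samples, against -0.14, 0.17 and -0.23 in ventral lateral samples, and the groups overlapped (difference 0.10, 95% interval -0.19 to 0.39, adjusted p = 0.777). Probe set 1449549_at of Efnb2 had values of -0.07, -0.12 and -0.09 in floor plate samples, against 0.23, 0.07 and 0.09 in ventral lateral samples. Here all floor plate samples lay below all ventral lateral samples, the opposite order of 1419639_at, but the probe set did not pass (difference -0.22, 95% interval -0.44 to -0.0078, adjusted p = 0.284). On the mean of the 4 probe sets Efnb2 had a difference of 0.38 (95% interval 0.13 to 0.62) and also missed the threshold (limma over all genes, adjusted p = 0.0753).

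**Figure D2:**
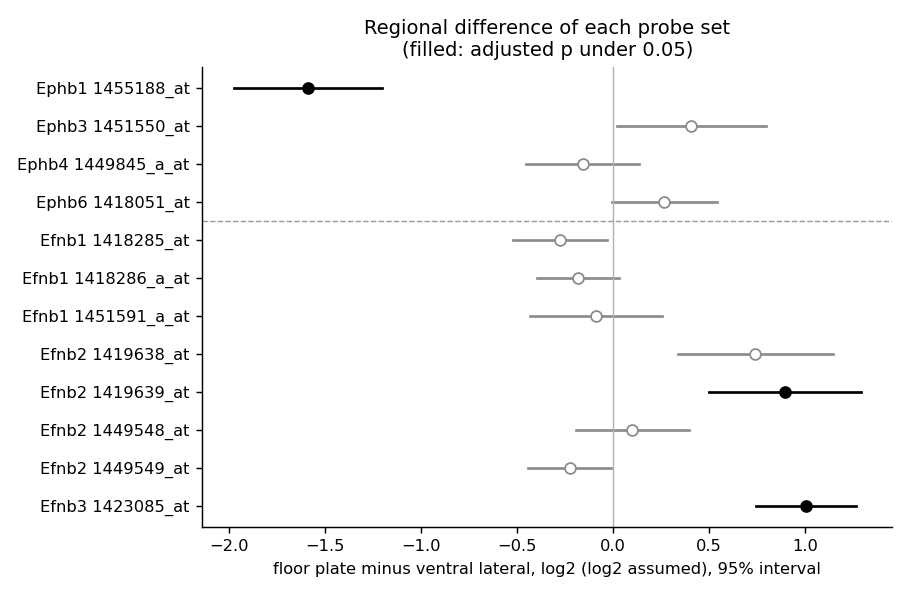
Difference between the regions (floor plate minus ventral lateral, log2 assumed) for each of the 12 probe sets, with 95% intervals from limma; filled points passed an adjusted p of 0.05. Ephb1 at -1.59 lies far below 0, Efnb3 at 1.01 above it, and the 4 probe sets of Efnb2 spread from -0.22 to 0.90.

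Whether the probe sets of a gene disagreed was tested on their difference within each array, fitted over all 30372 pairs of probe sets that share a gene. Of the 9 pairs within Efnb1 and Efnb2, none passed after adjustment (limma, adjusted p of 0.0532 to 0.899), and 4 had an unadjusted p under 0.05, all within Efnb2. Of all 30372 pairs, 1.21% passed, and 3719 had an unadjusted p under 0.05. The Efnb2 pair nearest the threshold set 1419639_at against 1449549_at and differed by 1.12 (95% interval 0.65 to 1.60, adjusted p = 0.0532). The pair of 1419638_at and 1449549_at differed by 0.97 (95% interval 0.49 to 1.44, adjusted p = 0.0855). Probe sets 1419638_at and 1419639_at differed by -0.15 (95% interval -0.46 to 0.15, adjusted p = 0.716). By value, 2 probe sets of Efnb2 lay at 0.74 and 0.90 and 2 at 0.10 and -0.22, but no pair across this gap passed the test.

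**Figure D3:**
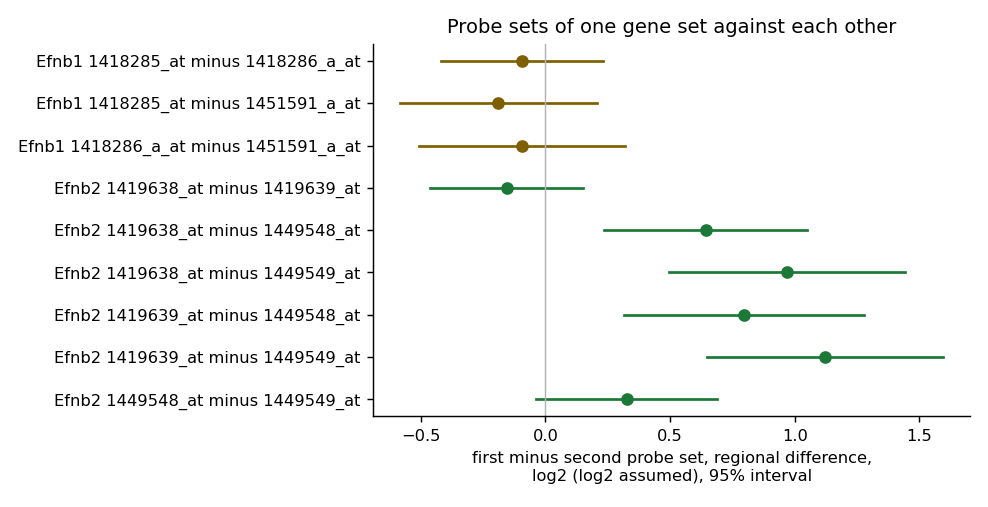
Regional difference (floor plate minus ventral lateral) of the first probe set minus that of the second, for each pair of probe sets of Efnb1 and Efnb2, on the log2 scale (log2 assumed) with 95% intervals that are not adjusted for the number of pairs. The 4 Efnb2 pairs that set 1419638_at or 1419639_at against the other two lie between 0.64 and 1.12, and the Efnb1 pairs between -0.19 and -0.09.

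Efnb1, encoding ephrin-B1, a ligand known for roles in craniofacial and neural development, had no probe set past the threshold. Probe set 1418285_at of Efnb1 had centred log2 values of -0.15, -0.04 and -0.07 in floor plate samples, against 0.32, 0.21 and 0.04 in ventral lateral samples (difference -0.28, 95% interval -0.52 to -0.03, adjusted p = 0.242). Probe set 1418286_a_at of Efnb1 had values of -0.03, -0.11 and -0.18 in floor plate samples, against 0.03, 0.10 and 0.09 in ventral lateral samples (difference -0.18, 95% interval -0.40 to 0.03, adjusted p = 0.391). In both, all floor plate samples lay below all ventral lateral samples, though by small margins. Probe set 1451591_a_at of Efnb1 had values of -0.33, 0.23 and -0.05 in floor plate samples, against -0.03, 0.03 and 0.11 in ventral lateral samples. The ventral lateral samples lay within the range of the floor plate samples, and the difference was -0.09 (95% interval -0.43 to 0.26, adjusted p = 0.842). On the mean of its 3 probe sets, Efnb1 had a difference of -0.18 (95% interval -0.38 to 0.01, adjusted p = 0.283).

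Set side by side, the 4 receptor probe sets had 0 higher and 1 lower, and the 8 ligand probe sets had 2 higher and 0 lower, in the limma fit. At an unadjusted p under 0.05 there were 2 receptor and 5 ligand probe sets, beside 16.5% of all probe sets. Differences reached from -1.59 to 0.41 among receptors and from -0.28 to 1.01 among ligands, with 2 receptor and 4 ligand probe sets above 0. The median SE was 0.15 for receptors and 0.12 for ligands, beside 0.13 over all probe sets. Within the classes, Ephb1 was the 1 receptor that passed, and Efnb1 lay below 0 on all 3 of its probe sets while Efnb3 was higher. A difference between the classes was not tested, because the genes are no replicates of a class.

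Efnb2 and Ephb4 are genes of blood vessels as well, so vessel and other non-neural markers were read beside them. Of 25 probe sets of 12 endothelial genes, none was higher in floor plate and 1 was lower (Cldn5, a tight junction protein of endothelium, difference -0.68, limma, adjusted p = 0.0227). The endothelial list averaged -0.17 to 0.07 on floor plate arrays and -0.02 to 0.15 on ventral lateral arrays. Pericyte, blood and macrophage lists had no probe set past the threshold in either direction. In the mesenchyme list 1 of 16 probe sets was higher in floor plate, that of the transcription factor Twist1 (difference 2.11, adjusted p = 0.00724). The mesenchyme list averaged -0.29, 0.50 and -0.05 on floor plate arrays 1 to 3, against -0.56, 0.31 and -0.09 on ventral lateral arrays 1 to 3. Within each region replicate 2 had the highest mean of the mesenchyme, endothelial and blood lists. Its endothelial mean was 0.07 in floor plate against 0.15 in the ventral lateral region, and its blood mean 0.13 against 0.22. The pericyte list was highest on floor plate replicate 2 (0.14) but on ventral lateral replicate 3 (0.05). The macrophage list was lowest on floor plate replicate 2 (-0.17) and highest on ventral lateral replicate 2 (0.07). The floor plate list, too, was highest on ventral lateral replicate 2 (-0.90) within that region, but on replicate 3 (1.08) within floor plate. Replicate 2 also had the highest value of 1419639_at and of 1419638_at for Efnb2 in each region. For 1449548_at replicate 2 was lowest in floor plate and highest in the ventral lateral region. For 1449549_at replicate 2 was lowest in each region. The part of these tissues in the difference of Efnb2 was not tested. Efnb3 was lowest in floor plate on replicate 2 and highest in ventral lateral samples on replicate 2.

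**Figure D4:**
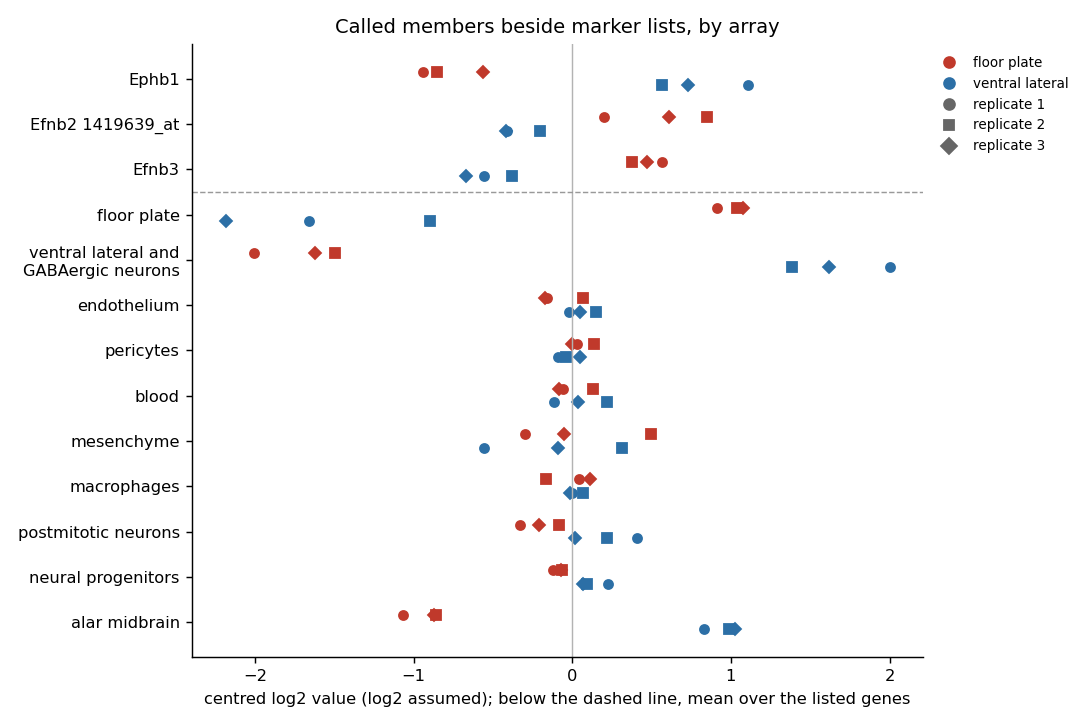
Centred log2 value (horizontal axis, log2 assumed) of Ephb1, Efnb2 and Efnb3 on each array, above the dashed line, and the mean over the genes of each marker list below it. Efnb2 is shown by probe set 1419639_at alone, the 1 of its 4 that passed. Floor plate points are drawn above ventral lateral points. The floor plate, ventral lateral and alar lists separate the regions widely, while the endothelial list lies between -0.17 and 0.15 on all arrays.

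Proteins that carry EphB and ephrin-B signals into the cell were taken as a list of 38 genes, of which 35 had a probe set of their own; Grin1, Pak1 and Ptk2 are not analysed here. Of these 35 genes, 2 had a probe set that was higher in floor plate and 2 had one that was lower, while 31 had none. Over all 18193 named genes, 4.58% had a probe set that was higher and 3.25% one that was lower. These shares depend on how many probe sets a gene has. By probe set, 2 of the 108 of the partner genes were higher and 2 lower, beside 2.70% and 2.01% of all probe sets. The count thus lies near that of probe sets in general. The median difference of the 108 partner probe sets was -0.012, against -0.0040 over all probe sets. Examples with no probe set past the threshold were the adaptors Nck1, Nck2 and Crk and the Ras GTPase-activating protein Rasa1. The exchange factors Tiam1, Vav2, Vav3 and Kalrn had none either. The 8 probe sets of Kalrn had differences of -0.34 to 0.84, with a lowest adjusted p of 0.0644 (limma).

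The partner genes that rose were Sdc2 and Pdzrn3. Sdc2, encoding syndecan-2, a heparan sulfate proteoglycan that EphB2 phosphorylates in neurons, had values of 0.37, 0.48 and 0.61 in floor plate samples, against -0.77, -0.37 and -0.43 in ventral lateral samples (probe set 1417011_at). The groups were well apart, with a difference of 1.01 (SE 0.13, limma, adjusted p = 0.00548). Of the 3 other probe sets of Sdc2, 1448545_at was at 0.96 (adjusted p = 0.069), 1417012_at at 0.57 (adjusted p = 0.0662) and 1431474_at at -0.07 (adjusted p = 0.905). Pdzrn3, encoding a PDZ-domain ubiquitin ligase, had values of 0.47, 0.44 and 0.46 in floor plate samples, against -0.80, -0.44 and -1.04 in ventral lateral samples (probe set 1416846_a_at). The floor plate samples were nearly equal, and the difference of Pdzrn3 was 1.22 (SE 0.15, limma, adjusted p = 0.00422), while its other probe set was at 0.06 (adjusted p = 0.944) and the mean of both at 0.64 (adjusted p = 0.0234). Without any 1 of the samples the adjusted p was 0.0108 to 0.0238 for Sdc2 and 0.00171 to 0.0262 for Pdzrn3.

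Rgs3 encodes a regulator of G protein signalling, a form of which binds the tail of ephrin-B through a PDZ domain. Its probe set 1454026_a_at had values of -0.34, -0.28 and -0.17 in floor plate samples, against 0.25, 0.42 and 0.17 in ventral lateral samples, with a difference of -0.54 (SE 0.11, limma, adjusted p = 0.0293). All 4 probe sets of Rgs3 lay below 0, between -0.54 and -0.37. The others did not pass, with 1425296_a_at at adjusted p = 0.0827, 1449516_a_at at 0.13 and 1425701_a_at at 0.263 (limma). In each of the 4 the regions did not overlap, as for 31 of the 108 partner probe sets and 22.4% of all probe sets. Src, encoding a tyrosine kinase that takes part in ephrin-B reverse signalling, had values of -0.39, -0.19 and -0.19 in floor plate samples, against 0.48, 0.19 and 0.22 in ventral lateral samples (probe set 1423240_at). The difference of Src was -0.55 (SE 0.12, limma, adjusted p = 0.045), and its other probe set was at -0.43 (adjusted p = 0.0596). Src missed the threshold without any 1 of the 6 samples (adjusted p of 0.0785 to 0.13), and so did Rgs3 (0.0564 to 0.0997). With array weights Src missed it as well (adjusted p = 0.0528).

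**Figure D5:**
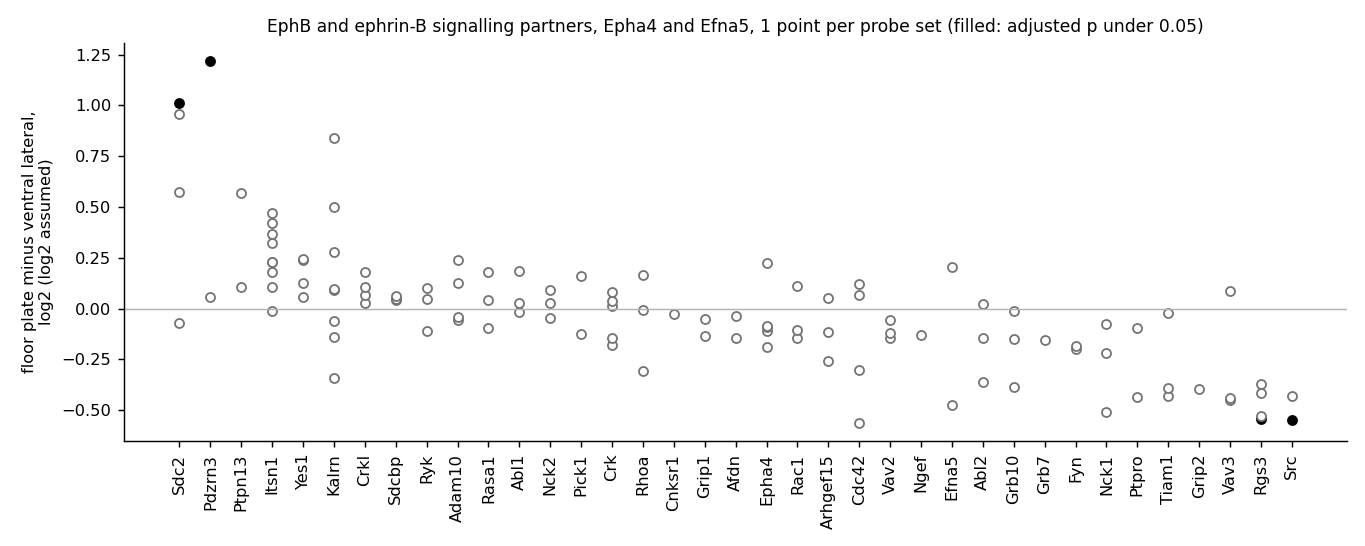
Difference between the regions (floor plate minus ventral lateral, log2 assumed) for each probe set of the 35 partner genes and of Epha4 and Efna5, genes ordered by their median; filled points passed an adjusted p of 0.05. Sdc2 and Pdzrn3 hold the 2 filled points above 0, at 1.01 and 1.22, and Rgs3 and Src the 2 below it, at -0.54 and -0.55.

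EphA4 and ephrin-A5 bind across the classes, EphA4 to ephrin-B2 and ephrin-B3 and ephrin-A5 to EphB2. The 5 probe sets of Epha4 had differences of -0.19 to 0.22 and none passed. The 2 probe sets of Efna5 stood at 0.20 (adjusted p = 0.574) and -0.47 (limma, adjusted p = 0.266).

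The genes whose values ran most like those of Ephb1 and Efnb3 over the 6 arrays were looked up by Pearson's r. The arrays fall into 2 regions, so r mostly follows the regional difference, and 554 other probe sets had r above 0.95 with Ephb1 and 875 with Efnb3. Nearest to Ephb1 were Hhip (r = 0.999, difference -3.08), Dscam (0.998, -1.90), Gata2 (0.997, -4.27), Slc32a1 (0.997, -4.48) and Tgs1 (0.997, -0.39). Hhip encodes a Hedgehog-binding membrane protein, Dscam a cell adhesion molecule of axons, Gata2 a transcription factor of GABAergic neurons and Slc32a1 the vesicular GABA transporter. Nearest to Efnb3 were Stk26 (0.999, difference 2.41), Phyhipl (0.999, 0.66), Wnt5b (0.999, 1.68), Ralgps2 (0.998, 1.40) and Dgke (0.998, 0.56). Stk26 encodes a serine/threonine kinase and Wnt5b a Wnt ligand. All of these but Tgs1 (limma, adjusted p = 0.0539) passed the test of the regional difference.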

How the data were processed

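Per the labels, total RNA of 3 floor plate and 3 ventral lateral pools was amplified (NuGEN Ovation) and labelled with biotin. RMA (background correction, quantile normalization, probe summary) is named in the submitters' processing notes; for its version and the genome build, nothing is given in the sources used here. All deposited values are taken as log2 values and are centred, with a median within 1e-05 of 0 for 100% of the 45101 probe sets. Of these, 64 control probe sets were left out. GEO's platform annotation named 34945 probe sets with 1 symbol (18193 genes), 932 with several and 9160 with none; 34741 symbols were matched by Entrez identifier to RefSeq genes of GRCm38.p6, and 0 changed.

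Differences were fitted per probe set in limma 3.58.1 (lmFit, eBayes; R 4.3.3). The p-values were adjusted by Benjamini-Hochberg over the 45037 probe sets, with a threshold of 0.05. Fitting probe sets avoids picking 1 per gene by its variance. The pairs of probe sets of a gene were fitted the same way on within-array differences. The fit was tested on simulated data. Members, partner genes and marker lists were chosen with earlier results of these data known. Named were all member probe sets, partner genes past the threshold with their other probe sets, the 5 genes most like the receptor and the ligand with the smallest p, and marker genes that stand beside a result; partner genes named as not passing serve as examples. Labels do not say whether pools of the 2 regions shared embryos, so the p-values speak only of the spread among these samples. Alternatives were quantile normalization, median centring of arrays, array weights, a block for the replicate number, thresholds of 0.01 and 0.10, a fit without _x_at and _s_at probe sets, gene-level fits and leaving out each sample. Background correction and a filter on dim probes could not be varied on centred values. Joins used pandas 2.3.3 and plots matplotlib 3.10.9, under Python 3.11.15.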

Additional observations from a re-analysis of the deposited data

How the results depend on the processing

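Ephb1 and Efnb3 kept their direction and their call in all 15 alternatives, with differences of -1.71 to -1.43 for Ephb1 (adjusted p of 0.000962 to 0.0151) and 0.94 to 1.09 for Efnb3 (0.00103 to 0.0166). Efnb2 kept its direction in all 15 and its call in 9. Probe set 1419639_at stood for it except in the fit on gene means, which took the mean of its probe sets (0.38, limma, adjusted p = 0.0753). The count of member probe sets that were higher was 1 at a threshold of 0.01 and 1 on the mean of each gene's probe sets, and 1 to 3 when each sample was left out in turn; the count of lower ones was 1 throughout. Over all probe sets the threshold of 0.01 gave 584 higher and 373 lower, the threshold of 0.10 gave 1419 lower, and leaving out a sample gave 753 to 991 higher and 510 to 743 lower. Partner genes past the threshold numbered 2 at 0.01, 8 at 0.10 and 2 to 4 when a sample was left out. Without floor plate replicate 1 Efnb1 probe set 1451591_a_at changed sign, with a range of -0.23 to 0.053 over the left-out samples. Apart from fewer samples and the thresholds themselves, the cause of these shifts was not tested. None of the 9 pairs of probe sets within Efnb1 and Efnb2 passed in the 8 alternatives run for pairs.

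The replicate numbers were not used as pairs in the main fit. Same-numbered samples of the 2 regions had correlations of their deviations of 0.0096, 0.125 and 0.114 (replicates 1, 2 and 3). The value for replicate 1 was under 0.1, while those for replicates 2 and 3 were above it. Samples with different numbers had correlations of -0.149 to 0.0274. With 3 samples per region, these values cannot decide whether the pools were paired. With the replicate number as a block, partner genes past the threshold numbered 2, without Src (adjusted p = 0.105) and Rgs3 (0.0694), Efnb2 probe set 1419638_at passed (adjusted p = 0.042), and Ephb1 (0.00753), Efnb3 (0.012) and Efnb2 1419639_at (0.0193) kept their calls.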
